A study of Mus musculus with 5 samples.

Results

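The 9 cytotoxic effector genes *Gzma*, *Gzmb*, *Gzmk*, *Gzmm*, *Prf1*, *Nkg7*, *Ifng*, *Fasl* and *Tnf* were examined for acetylated histones in memory CD8+ T (T_M) cells. They were chosen by name from 21911 protein-coding genes. The rule uses no measured value, but earlier results of these data were known when the genes were chosen. A peak was assigned to a gene when it lay in the gene body or within 30 kb of it on GRCm38. The 5 peak lists, 2 from WT and 3 from *TPdh-/-* cells, held 75 such peaks. Both groups were OT-I CD8+ T cells, activated with OVA peptide for 3 days and then cultured with IL-15 at 10 ng/mL for 4 days. *TPdh-/-* mice (labelled PDH_Mutant) carried the B6.129P2-Pdha1tm1ptl/J allele and the transgene of B6.Cg-Tg(Cd4-cre)1Cwi/BfluJ. The *Cd4* promoter drives Cre there, so that *Pdha*, a subunit of the pyruvate dehydrogenase complex, is deleted in T cells. Mice of both sexes were 8 to 12 weeks old. The sources do not say which of these alleles the WT mice carried, or how many mice stand behind each library. The study states more ChIPseq replicates per condition than the libraries analysed here. The antibody was raised against acetylated lysine of histones, and the sample labels name lysine 18.

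CD8+ T cells kill a target cell by releasing granules into the contact between the cells. Perforin (*Prf1*) opens pores in the target membrane, and granzymes, serine proteases of the granule, pass into the target and set off its death. A second route uses Fas ligand (*Fasl*) at the cell surface, while IFN-γ (*Ifng*) and TNF (*Tnf*) are secreted cytokines. Acetylation of histones marks promoters and enhancers of active genes, and resting memory cells are known to keep effector genes in an accessible state that allows a fast response.

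For 5 of the 9 genes, a region had a peak in every library, and 300 bases of each are printed here. For *Prf1* and *Gzmb* this is the RefSeq promoter, and for the others the middle of the region, all from GRCm38.p6. Peaks of all 5 libraries covered the printed windows, except that of *Gzmb*, where the peaks of *TPdh-/-* replicates 1 and 2 ended before the window and 3 libraries covered it. The stretch that all 5 *Gzmb* peaks shared, chr14:56261516-56261951, lay inside the gene and outside the printed window. Capitals mark matches, on either strand, to T-box (GGTGTGA), RUNX (TGTGGT), ETS (GGAAGT), STAT (TTCNNNGAA) and AP-1 (TGANTCA) motifs.
Prf1 promoter, chr10:61297586-61297885, plus strand: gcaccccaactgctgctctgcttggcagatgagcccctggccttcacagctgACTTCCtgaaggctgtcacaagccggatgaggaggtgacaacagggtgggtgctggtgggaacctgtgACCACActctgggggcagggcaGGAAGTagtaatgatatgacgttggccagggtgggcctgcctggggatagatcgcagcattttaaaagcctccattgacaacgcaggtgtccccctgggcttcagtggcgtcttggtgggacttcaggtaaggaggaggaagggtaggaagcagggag
Gzmb promoter, chr14:56262285-56262584, minus strand: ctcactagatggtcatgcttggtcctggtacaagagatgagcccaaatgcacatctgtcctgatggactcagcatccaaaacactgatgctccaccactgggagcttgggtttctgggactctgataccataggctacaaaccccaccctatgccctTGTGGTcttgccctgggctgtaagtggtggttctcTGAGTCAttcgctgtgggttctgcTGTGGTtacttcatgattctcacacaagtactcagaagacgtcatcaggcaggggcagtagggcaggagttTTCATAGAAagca
Gzmk upstream region, chr13:113197907-113198206, plus strand: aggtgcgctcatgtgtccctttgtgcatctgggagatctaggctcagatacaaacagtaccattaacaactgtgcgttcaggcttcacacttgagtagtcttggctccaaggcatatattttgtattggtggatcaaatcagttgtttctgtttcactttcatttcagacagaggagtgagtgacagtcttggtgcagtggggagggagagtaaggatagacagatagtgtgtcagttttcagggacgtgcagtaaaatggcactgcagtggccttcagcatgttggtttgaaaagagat
Ifng upstream region, chr10:118418679-118418978, plus strand: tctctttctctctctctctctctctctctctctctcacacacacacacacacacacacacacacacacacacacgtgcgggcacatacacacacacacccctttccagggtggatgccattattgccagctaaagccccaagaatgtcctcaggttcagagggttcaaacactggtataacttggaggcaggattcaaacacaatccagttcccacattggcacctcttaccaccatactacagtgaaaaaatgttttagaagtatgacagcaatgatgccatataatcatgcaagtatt
Fasl downstream region, chr1:161766545-161766844, plus strand: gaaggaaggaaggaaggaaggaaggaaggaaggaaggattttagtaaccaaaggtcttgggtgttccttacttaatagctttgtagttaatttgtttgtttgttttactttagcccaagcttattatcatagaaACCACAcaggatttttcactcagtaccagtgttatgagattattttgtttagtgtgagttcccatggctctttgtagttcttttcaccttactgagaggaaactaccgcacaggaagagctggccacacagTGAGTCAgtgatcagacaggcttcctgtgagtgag

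The *Prf1* promoter held 1 RUNX match and 2 ETS matches. The *Gzmb* promoter held 2 RUNX matches, 1 AP-1 match and 1 STAT match. Of 32851 RefSeq promoters of the same length, a RUNX match occurred in 16.8%, an ETS match in 23.8%, an AP-1 match in 7.81%, a STAT match in 8.30% and a T-box match in 3.98%. The region downstream of *Fasl* held 1 RUNX and 1 AP-1 match, and those of *Gzmk* and *Ifng* held none. Among the 3099 regions with a peak in all libraries, 18.9% held a RUNX match in their middle 300 bases, 29.0% ETS, 6.68% AP-1, 8.52% STAT and 3.74% T-box. Both promoters were poor in CpG, with 5 in *Prf1* and 2 in *Gzmb* against a median of 7 over all promoters. The printed windows of *Gzmk*, *Ifng* and *Fasl* held 3, 2 and 1 CpG, against a median of 11 over the shared regions. Those of *Ifng* and *Fasl* open with runs of short tandem repeats. Repeat masking in the reference covered 24.1% of the *Ifng* region and 20.5% of the *Fasl* region, against 6.94% for *Prf1*, 4.31% for *Gzmb*, 3.82% for *Gzmk* and a median of 11.9% over all shared regions. The part of repeats in these peaks was not tested.

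The lists differed in length, from 4920 to 9418 peaks in *TPdh-/-* and 8859 and 15962 in WT, with *TPdh-/-* replicate 3 longer than WT replicate 2. The lists carry no read numbers and the depth of each library cannot be judged, so a peak that a list lacks may lie below the threshold of the caller. Each peak has a fold, the ratio of its signal to the background MACS2 estimated, and a −log10 q. Its percentile is the share of peaks in its own list with a lower −log10 q, and rank 1 is the strongest. The cell label was checked by promoter peaks, within 3000 bp of a start site, at marker genes. Of 8 CD8+ T cell markers, 7 and 5 had such a peak in WT and 2, 4 and 5 in *TPdh-/-* replicates 1, 2 and 3. The share of all protein-coding genes was 40.9% and 23.7% in WT and 14.7%, 15.9% and 26.8% in *TPdh-/-*. *Cd8b1* and *Lck* had a peak in every library, *Cd8a* and *Thy1* in WT replicate 1 alone, and *Cd2* in none. *Cd3d*, *Cd3e* and *Cd3g* had none in *TPdh-/-* replicate 1. *Cd3d* and *Cd3g* stood at the same percentile wherever both had a peak. Of 4 B cell markers, 1 had a peak in WT replicate 1 and none elsewhere, and the 4 myeloid and 2 NK cell markers had none. Both CD4 T cell markers had a peak in WT replicate 1 and 1 of them in WT replicate 2, and none in *TPdh-/-*, and the part of such cells in the results was not tested. With bulk chromatin, fewer cells carrying a mark and less of the mark per cell cannot be told apart.

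**Figure D1:**
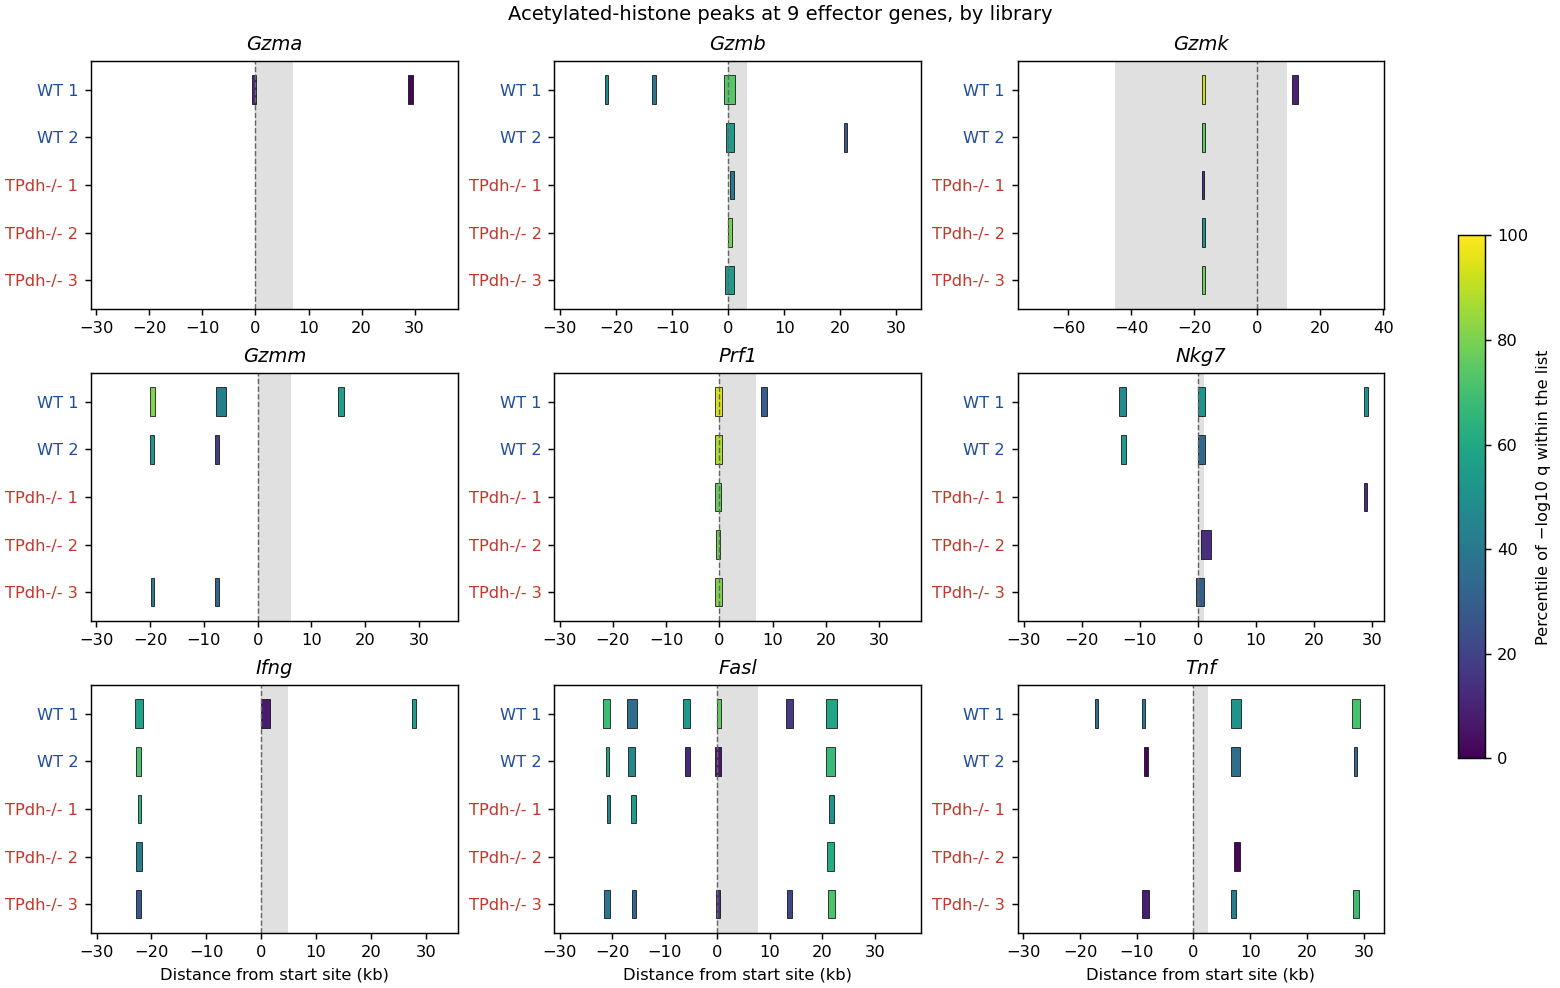
Peaks of the 9 effector genes in each library. The x axis is the distance from the start site in kb along the direction of the gene, grey is the annotated gene body, each bar is a peak drawn at its width, and colour gives the percentile of −log10 q in its list; *Prf1* has a peak over the start site in all 5 libraries, *Gzmb* one over or within 3000 bp of it, and *Gzma* has peaks in WT replicate 1 alone.

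*Prf1*, the gene of the pore-forming protein (chr10:61297833-61304680, plus strand), had a higher promoter percentile than the other 8 in every library except *TPdh-/-* replicate 2, where *Gzmb* was higher. A peak lay over its start site in every library, with its middle between 0.157 and 0.252 kb upstream. The fold was 3.02 and 3.00 in WT replicates 1 and 2, and 2.93, 2.79 and 2.86 in *TPdh-/-* replicates 1, 2 and 3. By −log10 q the peak ranked 992 and 1113 in WT, and 1143, 1204 and 1775 in *TPdh-/-* cells. These ranks put it at the 93.8 and 87.4 percentile in WT, and at the 76.8, 77.8 and 81.2 percentile in *TPdh-/-*. Both WT libraries were above all *TPdh-/-* libraries in fold and in percentile, and the highest fold was 1.08 times the lowest. It spanned 1197 and 1224 bp for WT against 1168, 806 and 1179 bp in *TPdh-/-*.

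*Gzmb*, a granzyme that cleaves caspases and their substrates after aspartate (chr14:56258838-56262260, minus strand), had a peak within 3000 bp of its start in every library. Its fold was below that of *Prf1* in each library, at 2.17 and 2.24 in WT and 2.36, 2.68 and 2.14 in *TPdh-/-* replicates 1, 2 and 3. Its percentile was 73.6 and 54.2 in WT, and 40.6, 79.5 and 54.1 in *TPdh-/-*. The groups overlapped in both measures, and the highest value of each came from *TPdh-/-* replicate 2. Width did separate them, with 1995 and 1568 bp in the WT libraries against 718, 765 and 1530 bp in *TPdh-/-*. In *TPdh-/-* replicate 1 the peak ended inside the gene, short of the start site. Among the 2275 genes with a promoter peak in all libraries, 23.9% had a lower mean percentile than *Gzmb* and 66.1% a lower one than *Prf1*.

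*Nkg7*, a membrane protein of cytotoxic granules (chr7:43437073-43438249, plus strand), had a peak at its start in 4 libraries. The fold there was 1.93 and 2.09 in WT, and 2.02 and 1.97 in *TPdh-/-* replicates 2 and 3. The percentile was 51.7 and 33.3 in WT, and 13.3 and 29.8 in those *TPdh-/-* lists, and *TPdh-/-* replicate 1 had no peak there. *Cldnd2*, the next gene, lies close enough that the same peaks count for it. A region 12.9 kb upstream of *Nkg7* had a peak in WT replicate 1 (47.3 percentile) and WT replicate 2 (54.4 percentile) and in no *TPdh-/-* library. A region in an exon of *Vsig10l*, 29.0 kb downstream of the *Nkg7* start, had a peak in WT replicate 1 at the 50.9 percentile and in *TPdh-/-* replicate 1 at the 11.7 percentile.

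Of the other granzymes, none had a start-site peak in more than 1 library. *Gzma*, a tryptase and an abundant granzyme of killer cells (chr13:113093825-113100981, minus strand), had a start-site peak in WT replicate 1 alone. That peak had a fold of 2.1995 and ranked 14244 of 15962, at the 10.8 percentile. *Gzmm*, which cleaves after methionine or leucine (chr10:79689020-79695261, plus strand), had no peak at its start in any library. Regions at or near the starts of its neighbours *Tpgs1* and *Cdc34* had peaks in both WT libraries and in *TPdh-/-* replicate 3. At *Tpgs1*, 19.5 kb upstream, the fold was 3.55 and 2.98 in WT and 2.74 in *TPdh-/-* replicate 3, and the percentile 80.8, 51.7 and 41.4. At *Cdc34*, the percentile was 42.9 and 17.8 in WT and 32.7 in *TPdh-/-* replicate 3.

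*Gzmk*, a tryptase that marks early memory cells (minus strand), had no peak at its usual start but a region 17.03 kb upstream in every library. This region lies in an intron of a longer annotated *Gzmk* transcript (chr13:113171608-113225908), and the nearest coding start is that of *Esm1*. The fold was 3.27 and 3.00 in WT and 2.61, 2.55 and 2.83 in *TPdh-/-* replicates 1, 2 and 3, so that both WT libraries were higher. Of the 5 regions with a peak in every library, this one varied most in percentile, with 92.8 and 74.4 in WT and 14.9, 50.3 and 78.7 in *TPdh-/-*. *TPdh-/-* replicate 3 was above WT replicate 2, and the groups overlapped. The peak ranked 1144 and 2269 in WT and 4186, 2695 and 2009 in *TPdh-/-*.

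*Fasl*, the ligand of the death receptor Fas (chr1:161780689-161788495, minus strand), had the most regions of the 9 genes, with 6, and 6 and 5 peaks in WT and 3, 1 and 5 in *TPdh-/-*. Its start-site peak was at the 75.9 and 7.26 percentile in WT and the 14.9 percentile in *TPdh-/-* replicate 3, and was in neither of the other *TPdh-/-* lists. The region in all libraries lay past the end of the gene, 21.7 kb downstream of the start. Its fold was 1.87 and 2.12 in WT and 2.15, 2.26 and 2.18 in *TPdh-/-*, and here both WT libraries were below all *TPdh-/-* libraries. Its percentile, 59.1 and 67.5 in WT and 50.0, 61.6 and 71.6 in *TPdh-/-*, overlapped between the groups. The WT peaks were 2056 and 1625 bp wide against 957, 1327 and 1296 bp in *TPdh-/-*, wider in both WT libraries.

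Upstream of *Fasl*, regions at 16.2 and 21.0 kb had peaks in both WT libraries and in *TPdh-/-* replicates 1 and 3. At 16.2 kb the percentile was 35.0 and 46.8 in WT and 54.4 and 32.4 in *TPdh-/-* replicates 1 and 3. At 21.0 kb it was 68.6 and 60.7 in WT and 46.0 and 38.7 in the same *TPdh-/-* lists. A region 5.90 kb upstream had a peak in WT replicate 1 (54.0 percentile), in WT replicate 2 (11.97 percentile) and nowhere else. A region 13.6 kb downstream of the start had peaks in WT replicate 1 and *TPdh-/-* replicate 3, at the 17.4 and 20.6 percentile.

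*Ifng*, the gene of the cytokine that activates macrophages and antigen presentation (chr10:118441046-118445892, plus strand), had its shared region 22.2 kb upstream, between genes. No other protein-coding gene lay in the *Ifng* window. The fold was 2.27 and 2.70 in WT and 2.89, 2.55 and 2.27 in *TPdh-/-* replicates 1, 2 and 3, and the groups overlapped. The percentile was 57.1 and 71.7 in WT and 64.8, 42.6 and 27.1 in *TPdh-/-*, again with overlap. At the *Ifng* start itself, WT replicate 1 alone had a peak, at the 7.28 percentile, named here after its value was seen.

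*Tnf* (chr17:35199381-35202007, minus strand), which lies in a dense cluster with the lymphotoxin genes, had no peak within 3000 bp of its start in any library. Regions in its window lay at starts of neighbours or between genes. At *Ltb*, the gene of lymphotoxin β, the percentile was 51.7 and 36.3 in WT and 1.64 and 41.9 in *TPdh-/-* replicates 2 and 3. At *Aif1*, 28.6 kb downstream, it was 70.8 and 32.6 in WT and 68.9 in *TPdh-/-* replicate 3. An intergenic region 8.45 kb upstream, on the side of *Lta*, was at the 39.6 and 1.41 percentile in WT and the 8.35 percentile in *TPdh-/-* replicate 3. *TPdh-/-* replicate 1 had no peak in the *Tnf* window, nor in that of *Gzmm*.

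The first comparison asked whether the effector genes carried fewer peaks without the pyruvate dehydrogenase complex. The windows held 28 and 17 peaks in WT and 8, 7 and 15 in *TPdh-/-* replicates 1, 2 and 3. They covered 34.1 and 16.995 kb in WT, and 6.32, 7.66 and 15.5 kb in *TPdh-/-*. Both WT libraries were above all *TPdh-/-* libraries in both measures. Exact permutation tests over the 10 ways to divide the libraries cannot give a two-sided p below 0.2, so no comparison could pass 0.05. Peak number was higher in WT by 1.12 on the log2 scale of peaks + 1 (exact permutation p = 0.2, 0.333 after Benjamini-Hochberg adjustment over 5 comparisons). Covered length was higher by 1.41 on the log2 scale of bp + 1 (exact permutation p = 0.2, adjusted 0.333). The length of the whole lists moved with these counts. Per 1000 peaks of the list, the effector genes had 1.75 and 1.92 in WT and 1.63, 1.29 and 1.59 in *TPdh-/-*, a log2 difference of 0.29. Both WT libraries were still above every *TPdh-/-* library (exact permutation p = 0.2). In lists cut to the 4920 strongest peaks, they had 6 and 9 in WT and 8, 6 and 5 in *TPdh-/-*, where the groups overlapped and the log2 difference was 0.21. Covered length stayed higher in both WT libraries under either scaling, but lists cut to the same number of peaks can still differ in peak width. Of the 3099 regions shared by all libraries, 92.5% were wider in WT on average, with a median difference of 264 bp. How far this general width difference accounts for the covered length at the effector genes was not tested. In the lists of equal length WT had 7673 and 9813 bp against 6321, 6555 and 6318 bp for *TPdh-/-*, a log2 difference of 0.44 (exact permutation p = 0.2). Per 1000 bp that the list covered, WT had 1.69 and 1.72 bp against 1.30, 1.39 and 1.42 bp for *TPdh-/-*.

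Most effector genes had a peak in their window in both groups, 9 and 8 of 9 in WT and 6, 7 and 8 in *TPdh-/-*. Of all protein-coding genes, 64.1% and 48.2% had one in WT and 33.4%, 35.0% and 51.0% in *TPdh-/-* replicates 1, 2 and 3. For 6 of the 9 genes the window held a peak in all 5 libraries, against 26.2% of all genes. Some of these peaks lay nearer to other genes, as for *Nkg7*, where *TPdh-/-* replicate 1 had only the peak at *Vsig10l*. Counting only peaks whose nearest coding start was the gene's own, 7 and 5 of the 9 had one in WT and 4, 5 and 5 in *TPdh-/-*. That share was not computed for all genes. At promoters, 6 and 4 of the 9 had a peak in WT and 2, 3 and 4 in *TPdh-/-*. The share of all 21829 genes was 40.9% and 23.7% in WT and 14.7%, 15.9% and 26.8% in *TPdh-/-*, so that *TPdh-/-* replicates 1 and 2 had the smallest share for genes in general too. Promoter peaks in all 5 libraries occurred at 2 of 9 effector genes, *Gzmb* and *Prf1*, against 10.4% of all genes. The mean number of genes with a window peak was 8.5 ± 0.707 for WT (SD, n = 2) against 7 ± 1 for *TPdh-/-* (SD, n = 3; exact permutation p = 0.4, adjusted 0.4). With a promoter peak, it was 5 ± 1.41 and 3 ± 1 (exact permutation p = 0.4, adjusted 0.4), and the libraries of the groups overlapped in both.

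**Figure D2:**
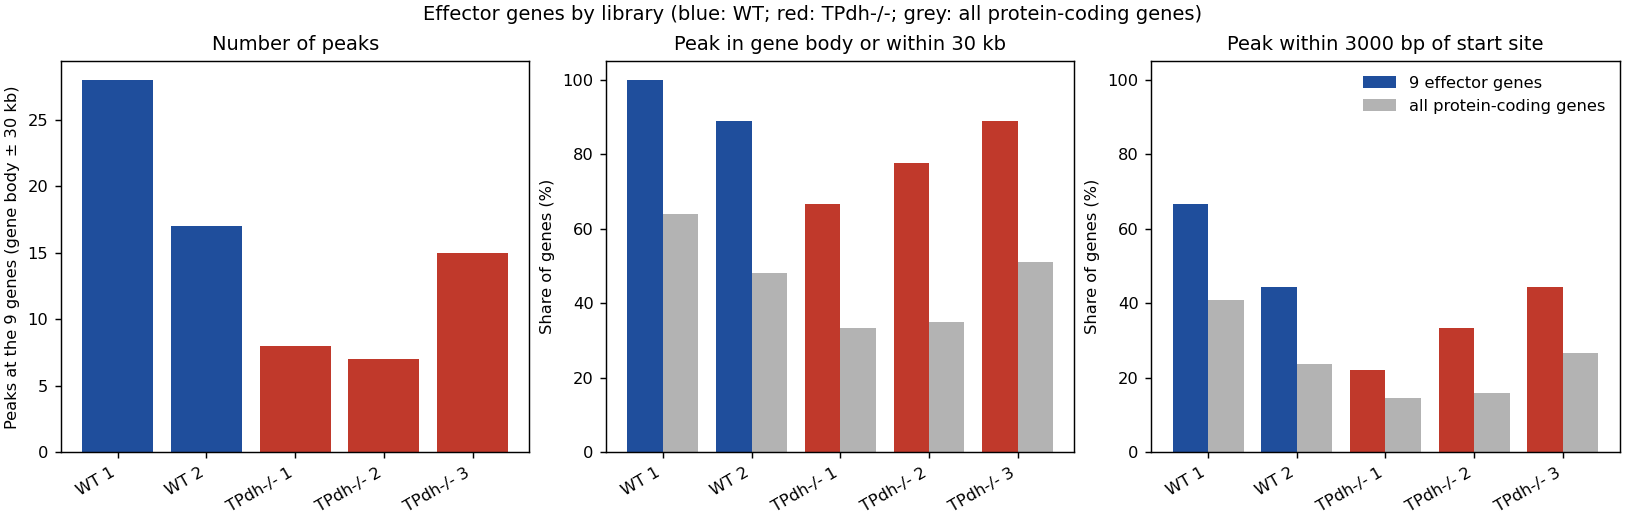
Peaks per library at the effector genes. Bars give, from left to right, the number of peaks in the windows, the share of genes (%) with a peak in the window and the share with a peak within 3000 bp of a start site, with WT in blue, *TPdh-/-* in red and all protein-coding genes in grey; the share of effector genes is above that of all genes in each library, and both are smallest in *TPdh-/-* replicate 1.

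Peaks of the 5 libraries formed 29 regions at the effector genes, of which 15 were intergenic, 10 lay over a coding start site and 6 within 3000 bp of the gene's own start. The gene itself had the nearest coding start for 17 of the 29. Of these 29, 5 (17.2%) had a peak in all libraries, against 16.8% of the 18410 regions of the genome. In both WT and no *TPdh-/-* library there were 2 (6.90%), the ones upstream of *Nkg7* and *Fasl*, against 5.92%. That count rested on single libraries. Leaving out a library loosens the pattern to every remaining WT library and no remaining *TPdh-/-* library. Without WT replicate 2 it was 12 of 28 (42.9%), against 38.5% of the genome, and without *TPdh-/-* replicate 3 it was 7 of 29 (24.1%), against 15.5%. No region had a peak in all *TPdh-/-* libraries and no WT library, against 0.0272%. WT replicate 1 alone held 10 (34.5%), against 30.9%. With all 5 libraries, these shares were near those of the genome. All 30 *TPdh-/-* peaks (100%) lay in a region that also had a WT peak, against 91.8% of the *TPdh-/-* peaks of the genome. Of the 45 WT peaks, 30 (66.7%) lay in a region with a *TPdh-/-* peak, against 65.1%.

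The second comparison asked whether the regions found in every library were weaker in *TPdh-/-*. The mean percentile of the 5 regions was 75.3 and 71.0 in WT and 49.4, 62.3 and 62.5 in *TPdh-/-* replicates 1, 2 and 3. It averaged 73.2 ± 3.00 for WT (SD, n = 2) against 58.1 ± 7.51 for *TPdh-/-* (SD, n = 3), 15.1 points higher in WT (exact permutation p = 0.2, adjusted 0.333). Shared regions in general were also higher in the WT lists. The median difference was 10.6 points over the 3099 shared regions, of which 83.6% were higher in WT on average, and 12.04 points over the 5. Ranked among the shared regions alone, the mean of the 5 was 0.877 points higher in WT (exact permutation p = 1). Their median difference was -0.72 points, lower in WT, against 0.0161 over all shared regions.

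By region, 20 comparisons of width, fold, −log10 q and percentile were made, none of which could pass 0.05. The fold of *Prf1* was 3.01 ± 0.0204 for WT (SD, n = 2) against 2.86 ± 0.0669 for *TPdh-/-* (SD, n = 3; exact permutation p = 0.2). That of *Gzmk* was 3.14 ± 0.188 and 2.66 ± 0.147 (exact permutation p = 0.2), and that of *Fasl* was lower in WT, at 1.99 ± 0.183 against 2.198 ± 0.0559 (exact permutation p = 0.2). *Gzmb* and *Ifng* overlapped in fold. So 2 of the 5 had both WT folds above every *TPdh-/-* fold, against 12.6% of shared regions, and 1 had both below, against 11.6%. For percentile, 1 of the 5, *Prf1*, had both WT libraries above, against 29.5%, with 90.6 ± 4.49 in WT and 78.6 ± 2.30 in *TPdh-/-*. Peaks were wider in both WT libraries at *Gzmb*, *Prf1* and *Fasl*, and this held for 33.5% of all shared regions. For −log10 q, both WT libraries were above every *TPdh-/-* library at *Prf1* and *Ifng*, 2 of the 5, against 33.2% of shared regions. The −log10 q of *Prf1* was 9.12 ± 3.45 for WT (SD, n = 2) against 4.89 ± 1.18 for *TPdh-/-* (SD, n = 3; exact permutation p = 0.2). For *Ifng* it was 4.63 ± 0.0598 against 2.66 ± 0.513 (exact permutation p = 0.2). At *Gzmb* the width was 1782 ± 302 bp (SD, n = 2) against 1004 ± 456 bp (SD, n = 3; exact permutation p = 0.2).

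Among the shared regions alone, the order of the libraries differed from gene to gene, and 3 of the 5 were lower in WT on average. The mean difference was -14.2 points for *Gzmb*, -17.4 for *Fasl* and -0.72 for *Ifng*, where all 3 were above 0 in the whole lists. *Gzmk* and *Prf1* stayed higher in WT on average, by 28.2 and 8.49 points. *Prf1* stayed high, at the 74.9 and 70.9 percentile in WT and 67.6, 67.2 and 58.5 in *TPdh-/-*. It was the only 1 of the 5 with both WT libraries above every *TPdh-/-* library, against 11.3% of shared regions. *Gzmb* stood at 28.4 and 22.9 in WT and 27.7, 69.7 and 22.1 in *TPdh-/-*, with *TPdh-/-* replicate 2 far above the rest. *Gzmk* was at 71.6 and 48.7 in WT and 6.84, 34.6 and 54.4 in *TPdh-/-*. *Ifng*, at 9.91 and 44.8 in WT and 53.5, 26.4 and 4.29 in *TPdh-/-*, spread as widely within each group as between them. *Fasl* was at 11.6 and 38.8 in WT and 37.2, 47.0 and 43.6 in *TPdh-/-*.

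**Figure D3:**
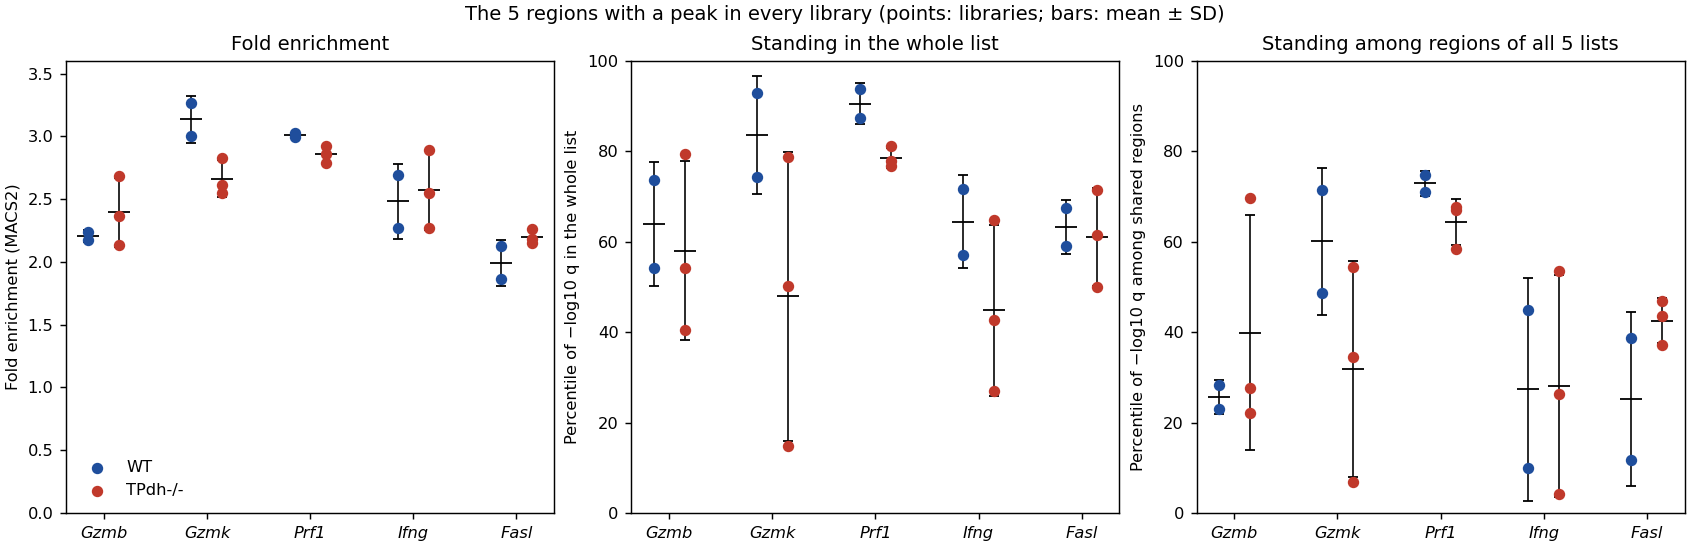
The 5 regions with a peak in every library, named by gene. Points are libraries (blue WT, n = 2; red *TPdh-/-*, n = 3) and bars the mean ± SD of the MACS2 fold, the percentile of −log10 q in the whole list and the percentile among regions that all lists share; fold separates the groups for *Gzmk*, *Prf1* and, in the other direction, *Fasl*, and the standing of *Prf1* among shared regions runs from 58.5 to 74.9.

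Other genes of the cytotoxic pathways were counted by promoter peaks. The 6 granzyme genes next to *Gzmb* (*Gzmc* to *Gzmg* and *Gzmn*) had none in any library, as did 58.0% of all protein-coding genes. Of this cluster, *Gzmb* alone had a peak called at its start. Only uniquely mapping reads had been kept, and whether this removed signal at the other granzymes was not tested. Of 6 genes for granule content and its inhibitors, 6 and 5 had a promoter peak in WT and 3, 3 and 4 in *TPdh-/-* replicates 1, 2 and 3. *Srgn*, the proteoglycan that packs granzymes, and *Ctsc*, the protease that activates them, had one in every library. The *Srgn* peak was at the 64.3 and 71.6 percentile in WT and 36.6, 50.2 and 68.7 in *TPdh-/-*. *Ctsc* was higher, at 86.4 and 82.9 in WT and 74.7, 69.8 and 85.3 in *TPdh-/-*, and overlapped between the groups. *Cst7*, an inhibitor of cathepsins in the granule, had a peak in WT replicate 1 (33.7 percentile), in WT replicate 2 (1.50 percentile) and nowhere else.

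Of 8 genes for granule release, 8 and 5 had a promoter peak in WT and 5, 4 and 7 in *TPdh-/-*. In every library there was one at *Unc13d* (the priming factor Munc13-4), *Stx11* and *Vamp8* (SNARE proteins) and *Ap3b1* (an adaptor for granule sorting). *Unc13d* was at the 94.1 and 75.8 percentile in WT and 40.8, 46.0 and 40.8 in *TPdh-/-*. Both WT libraries were above the others there, as in 29.5% of all regions shared by the 5 libraries. *Stx11*, at 58.1 and 80.8 in WT and 79.8, 81.4 and 83.0 in *TPdh-/-*, did not follow that order. *Vamp8* was between 86.5 and 95.7 in every library.

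Of 11 genes for ligands, receptors and caspases of the death and interferon pathways, 8 and 7 had a promoter peak in WT and 3, 6 and 7 in *TPdh-/-*. *Fadd*, the adaptor of Fas, *Casp8*, the caspase it recruits, and *Ifngr1*, a chain of the IFN-γ receptor, had one in every library. Over all 31 genes of these lists, 22 and 17 had a promoter peak in WT and 11, 13 and 18 in *TPdh-/-*, against 40.9% and 23.7% of all protein-coding genes in WT and 14.7%, 15.9% and 26.8% in *TPdh-/-*. Of the 31, 9 had one in all libraries, against 10.4% of all genes, and 9 in none, against 58.0%. In the effector genes, in these lists and in all protein-coding genes, *TPdh-/-* replicates 1 and 2 had the fewest promoter peaks, while *TPdh-/-* replicate 3 was at or above WT replicate 2.

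**Figure D4:**
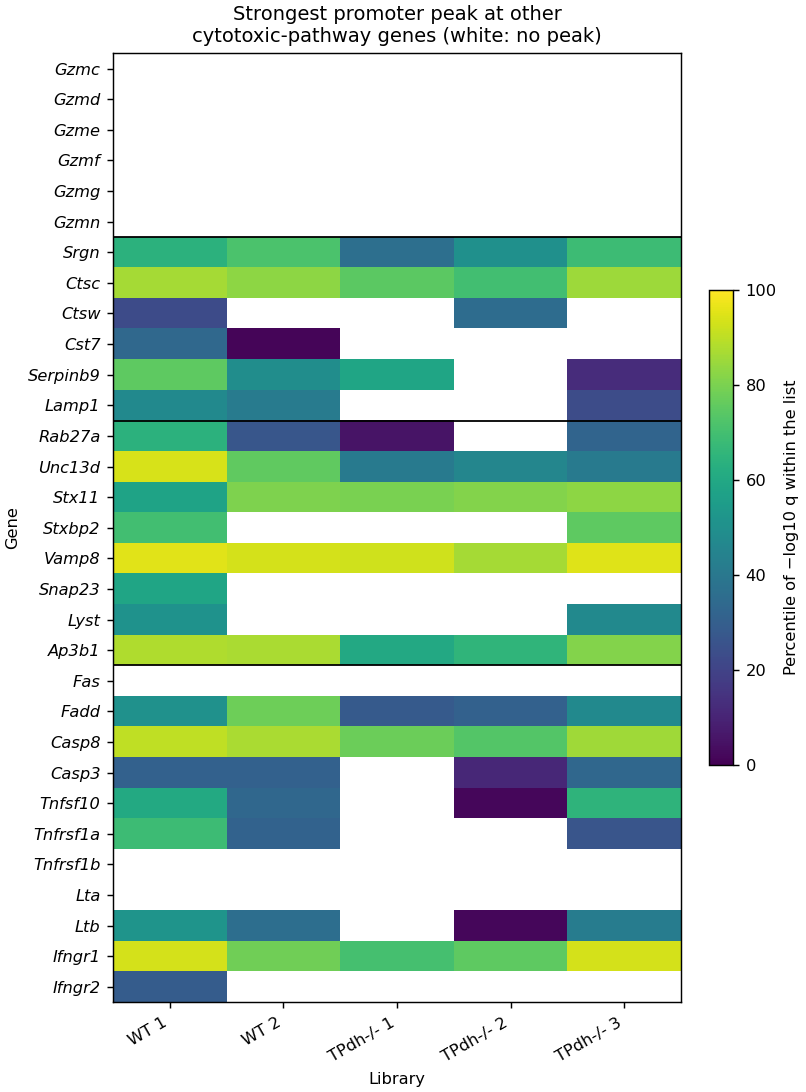
Strongest promoter peak at other cytotoxic-pathway genes (y axis) by library (x axis), coloured by the percentile of −log10 q in the list, with white where no peak was called and black lines between gene lists. The 6 granzymes next to *Gzmb* are white throughout, and 9 genes have a peak in all 5 libraries.

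Genes whose promoter standing over the 5 libraries was most like that of an effector gene were found by the mean absolute difference in percentile, with 0 where a library had no peak. For *Prf1* they were *Srrm2*, a splicing factor, with a difference of 2.44 points, and *Casp8*, with 2.65. For *Gzmb* they were *Psph*, an enzyme of serine synthesis, with 3.64, and *Oaz1*, a regulator of polyamine synthesis, with 4.40. *Nkg7* was nearest to *Cldnd2*, which shares its peaks, and then to *Parp16*, with 3.35. *Fasl* was nearest to *Thumpd1*, with 1.86, and *Mettl16*, with 1.88. Both stood at 0 in WT replicate 2 and in *TPdh-/-* replicates 1 and 2. *Fasl* had no promoter peak in those *TPdh-/-* lists either, so part of this likeness is shared lack of a peak.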

How the data were processed

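ChIPseq of acetylated histones was analysed in 2 WT and 3 *TPdh-/-* libraries, grouped by their titles. The authors aligned reads to GRCm38/mm10, kept uniquely mapping reads, removed blacklisted regions and called broad peaks per library. The submitters' processing notes list BWA 0.7.17, SAMtools 1.15.1, MACS2 2.2.6, DiffBind 3.2 and ChIPseeker 1.28.3. No input control is given in the sources used here. Per the file format, the deposited lists hold for each peak a fold (a ratio on a linear scale), a −log10 p, a −log10 q and a score that repeats the −log10 q. No read counts are given, so the depth is unknown.

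Peaks were assigned, counted and ranked by −log10 q within each list with Python 3.11.15, numpy 2.4.6 and pandas 2.3.3, after tests on simulated lists. Start sites are those of protein-coding transcripts in the GENCODE annotation of GRCm38. Distances run from peak middle to start site. Peaks sharing at least 1 bp in any library were joined into regions, and sequences came from RefSeq (GRCm38.p6), where all 9 genes matched. Groups were compared by exact permutation tests, two-sided as double the smaller one-sided p. The labels do not say that replicates are separate animals, so p-values measure only the spread between these libraries, which may be technical.

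All 9 genes are named, with every region found in at least 2 libraries. Of regions in 1 library, the strongest is named for a gene with no other. For genes with a promoter peak in at least 3 libraries, the 2 most alike genes are named. Pathway genes are named when all libraries, or both WT and no *TPdh-/-* library, had a promoter peak. *Trac* and *Vamp7* were not among the annotated protein-coding start sites used. The genes and lists were chosen with earlier results of these data known. As alternatives, peaks were limited to a minimum −log10 q of 2 or 5 or to the same number per list, and the analysis was repeated with windows of 10 or 50 kb, promoters within 1000 bp, an overlap of 50%, only the peaks nearest to the gene's own start, a replicate block and leaving out each library.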

Additional observations from a re-analysis of the deposited data

How the results depend on the processing

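No alternative turned the difference in peak number, covered length, genes with a peak or mean percentile, and 2 or 3 libraries per group limit every comparison. Single regions did turn when ranked among shared regions, with -14.2 points for *Gzmb*, -17.4 for *Fasl* and -0.72 for *Ifng* in place of 5.85, 2.26 and 19.6, and so did the median of the 5, from 12.04 to -0.72. *Gzmk* and *Prf1* did not turn, with 28.2 and 8.49 points. Shares per 1000 of the list, gene bodies of RefSeq and ranks among shared regions were chosen after the data were seen. With lists of equal length, the log2 difference in peak number was 0.21 and in covered length 0.44, genes with a promoter peak differed by 0.167, the mean percentile by 1.55 points, 3 regions were in all libraries and 1 was in both WT alone. Per 1000 of the list, the log2 differences were 0.29 and 0.31, and ranked among shared regions the percentile differed by 0.877. With a −log10 q of at least 5, *TPdh-/-* replicates 1 and 2 had no peak left. The log2 difference in covered length was then 7.75, a size that depends on the 1 bp added to their 0 bp. Genes with a window peak differed by 2.5. At this limit 0 regions were in all libraries or in both WT alone, which left no percentile to compare. With at least 2, 1 region was in both WT alone. A 10 kb window gave a difference of 3 genes, 3 regions in all libraries and 1 in both WT alone, and a 50 kb window 8 in all libraries. Counting peaks nearest to the gene's own start left 1 region in both WT alone. Leaving out each library in turn, the log2 difference was from 0.78 to 1.47 in peak number and from 0.90 to 1.91 in covered length, window genes differed by 1 to 2, promoter genes by 1 to 3 and the percentile by 12.96 to 17.3. Regions in all remaining libraries were 5 to 7, and those in all remaining *TPdh-/-* alone 0 to 0. Those in every remaining WT and no remaining *TPdh-/-* library were 2 to 12, 12 without WT replicate 2, 7 without *TPdh-/-* replicate 3. Leaving out a library loosens these patterns. The replicate block has no partner for *TPdh-/-* replicate 3 and gave 1.43, 1.79, 2, 2.5 and 17.3 for peak number, covered length, window genes, promoter genes and percentile, and nothing says that the numbers pair the samples. The cause of these changes was not tested, beyond fewer peaks under stricter limits.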
